A study of Mus musculus with 2 samples.

Results

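The cytosolic ribosomal protein (RP) genes encode the proteins of the small and large subunits of the ribosome that translates messages in the cytoplasm. They were followed here from neural progenitors to neurons in single cells of the embryonic mouse brain. Genes were taken by symbol (Rps or Rpl with a number and at most a letter a, x or l, Rplp0 to Rplp2, and Rpsa). Of 32285 genes in the files 80 matched, and 77 of these held at least 50 UMIs over the cells of both libraries (31 of the small and 46 of the large subunit). A UMI, or unique molecular identifier, marks 1 captured transcript. The tissue was the corticoseptal boundary at E16.5, the midline region between cortex and septum. One library came from Tcf4f/f;Emx1Cre embryos (Tcf4 cKO, below cKO), in which Cre under Emx1 control acts in progenitors of the dorsal telencephalon on a floxed Tcf4, which encodes a bHLH transcription factor. The other library came from wild-type (WT) embryos. The labels give neither the number of embryos per library, nor the floxed exon, nor whether the WT embryos carried any floxed allele.

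With 1 library per genotype no test between genotypes exists. Every 95% interval below covers counting error only, and UMIs amplified from the same library share its preparation. After filtering, 10102 cKO cells with a median of 8143.5 UMIs and 8625 WT cells with a median of 9656 UMIs remained, and the 2 libraries shared 23 cell barcodes. Cells were clustered without the RP genes among the variable genes, and cluster names were rebuilt from marker genes, so each class name below stands for cells that are like that type. Tcf4 itself stood at 1762 CPM (UMIs of the gene per 1e6 UMIs of the class) in cKO and 2618 CPM in WT glutamatergic neurons. It stood at 586.2 CPM in cKO and 650.5 CPM in WT GABAergic neurons, whose known origin lies outside the Emx1 lineage. These are UMIs at the 3′ end of transcripts and say nothing of the deleted part.

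Each ribosome holds 1 copy of nearly every RP, and cells that divide and grow make RPs in step with each other. Most RP messages begin with a tract of pyrimidines, the 5′ TOP motif, through which the mTOR pathway and Larp1 set their translation as a group. Radial glia of the cortex, counted here among the astroglia, divide to give Eomes-positive intermediate progenitors, which in turn give glutamatergic neurons. GABAergic neurons come from subpallial progenitors that express Dlx2.

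Among the 5 large classes, RP messages took their largest share of UMIs in intermediate progenitors, in both libraries. In the cKO library the share was 20.1% in astroglia (1256 cells), 23.4% in intermediate progenitors (423 cells) and 13.4% in glutamatergic neurons (2472 cells). In the WT library it was 19.1% in astroglia (1141 cells), 23.1% in intermediate progenitors (332 cells) and 13.7% in glutamatergic neurons (1699 cells). Cycling progenitors, which mix pallial and subpallial cells, stood at 16.6% in cKO and 15.96% in WT. GABAergic neurons stood at 12.7% in cKO and 13.1% in WT. The exact 95% interval was widest in the intermediate progenitors, at 23.34% to 23.43% in cKO and 23.06% to 23.15% in WT, so the spread between cells is far wider. In cKO intermediate progenitors the middle of the cells, from percentile 25 to 75, ran from 21.8% to 25.6%, and in cKO glutamatergic neurons from 12.2% to 14.8%, which do not overlap. In WT the same ranges were 21.7% to 24.9% and 12.2% to 14.9%. Astroglia spread more widely, from 17.96% to 22.9% in cKO and from 16.7% to 22.1% in WT.

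The order of astroglia, intermediate progenitors and glutamatergic neurons was the same among cells of like depth. Among cells of 5000 to 10000 UMIs, cKO intermediate progenitors held a mean of 1817 RP UMIs beside 5837 other UMIs, and cKO glutamatergic neurons 1038 beside 6684. WT intermediate progenitors held 2038 RP UMIs beside 6595 others, and WT glutamatergic neurons 1120 beside 7297. Within that range the cKO shares were 20.5% in astroglia, 23.7% in intermediate progenitors and 13.4% in glutamatergic neurons. The WT shares were 19.6% in astroglia, 23.6% in intermediate progenitors and 13.3% in glutamatergic neurons. The order of the neurons was not kept in WT, where GABAergic neurons of this depth held 13.6%, above the glutamatergic ones, whereas in cKO they held 12.9%. Free RNA, read from droplets of 10 to 100 UMIs, held 16.6% RP UMIs in cKO and 15.8% in WT, between the neurons and the astroglia. An estimate from haemoglobin UMIs put free RNA at 1.19% of the UMIs of neurons in cKO and 2.27% in WT.

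The clusters within the classes filled in most of the steps between, and the astroglia were not uniform. Astroglia cluster 13 held 20.3% RP UMIs in cKO and 19.9% in WT. Cluster 16, with more Six3 than Emx1, held 17.8% in cKO and 19.25% in WT. Cluster 22, also with more Six3, held 14.3% in cKO (91 cells) and 15.1% in WT (281 cells). That is within the range of the glutamatergic clusters, given below, in WT and just above it in cKO. On the pallial side, cluster 6, astroglia with Neurog2 among its leading genes, held 22.5% RP UMIs in cKO and 21.6% in WT. Cluster 9, the intermediate progenitors with Eomes, held 23.4% in cKO and 23.1% in WT. Cluster 1, an unnamed cluster led by Epha3, Slc17a6, Eomes and Unc5d, held 17.8% in cKO and, as an exact interval, 17.96% to 18.03% in WT, below the intermediate progenitors and above every glutamatergic cluster. Cycling clusters with Emx1 lay lower than astroglia clusters 6 and 13 and near cluster 1. Cluster 12 held 17.4% in cKO and 16.9% in WT, and cluster 23 held 16.4% in cKO and 15.9% in WT. Unnamed cycling cluster 19, with Eomes, held 17.4% in cKO and 16.8% in WT. The glutamatergic clusters with at least 50 cells of a library lay between 11.7% and 14.1% in cKO and between 12.8% and 15.3% in WT.

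The subpallial clusters gave the same shape at a lower level. Cycling cluster 4, which had Six3 at 237.6 CPM in cKO and 261.6 CPM in WT, held 15.8% in cKO and 15.3% in WT. Unnamed cluster 10, led by Gsx1 and with Gsx2 among its leading genes, factors of subpallial progenitors that are about to make neurons, held 19.7% in cKO and 20.1% in WT. GABAergic cluster 5, with Dlx2 at 606.5 CPM in cKO and 551.3 CPM in WT, held 15.7% in cKO and 16.1% in WT. GABAergic clusters 0, 8, 21, 24 and 25 lay between 11.96% and 13.3% in cKO and between 12.04% and 13.8% in WT. GABAergic cluster 27, with Gbx1 and Lhx6, was lower still at 10.2% in its 154 cKO cells, and 23 WT cells fell in it. On both sides the highest share stood in a cluster of neurogenic progenitors and the neurons stood below it, an order of clusters read from their markers after they were seen.

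**Figure D1:**
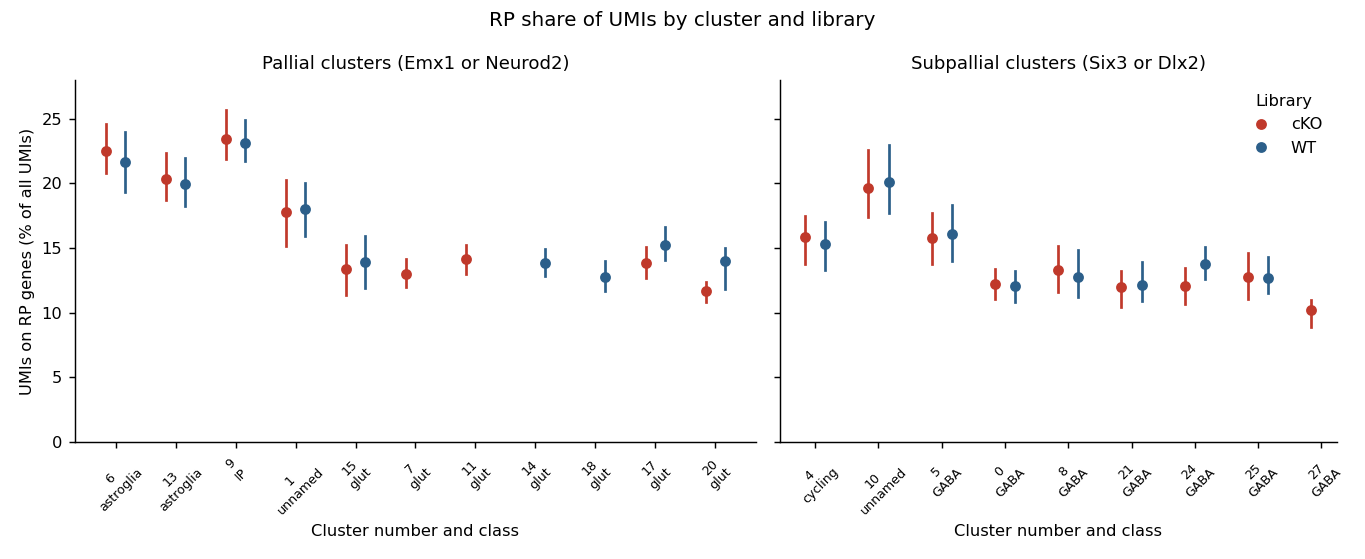
RP share of all UMIs (vertical axis, percent) for clusters set in the order progenitor to neuron, pallial clusters on the left and subpallial ones on the right; points are the share over all cells of a cluster in a library with at least 50 cells, and lines run from percentile 25 to 75 of its cells. The highest points are cluster 9 on the pallial side (23.4% in cKO and 23.1% in WT) and cluster 10 on the subpallial side (19.7% in cKO and 20.1% in WT), and the neuron clusters lie between 10.2% and 16.1%. The figure draws a choice of clusters and not all of them, and astroglia clusters 16 and 22 are among those left out. Cycling clusters 12, 19 and 23, given in the text, lay between 15.9% and 17.4%.

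The pattern was shared by the members. Each of the 77 genes had its highest level in intermediate progenitors among the 5 large classes, in both libraries. The order intermediate progenitors, astroglia, glutamatergic neurons from high to low held for 77 members in cKO and 76 in WT. The median member stood at 2604 CPM in astroglia, 3095 CPM in intermediate progenitors and 1745 CPM in glutamatergic neurons of the cKO library, and at 2540, 3084 and 1819 CPM in the same classes of the WT library. Because the libraries tag each transcript once at its 3′ end, these levels need no division by length. Over all cells the lowest member was Rps27l, at 320.3 CPM in cKO and 346.2 CPM in WT. The highest in cKO was Rpl13, at 4419 CPM. Rps27l, with 61564 UMIs, was also the member nearest to the minimum of 50. Just outside it stood Rpl39l with 43 UMIs, Rpl3l with 5 and Rpl10l with 0 of 184722368 UMIs, which allows a level of up to 0.0162 CPM. These 3 are copies of Rpl39, Rpl3 and Rpl10 that are known from testis or muscle.

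From astroglia to intermediate progenitors the step was small. The summed log2 ratio, intermediate progenitors over astroglia, was 0.22 in cKO and 0.27 in WT, and all 77 members lay above 0 in each. No member reached 1.5-fold, which 5.13% of 11028 genes tested did upwards in cKO and 6.3% of 11253 in WT. The median over all genes tested was -0.10 in cKO and -0.13 in WT. The astroglia class pools clusters 6 and 13, which hold more Emx1 than Six3 UMIs (851 cKO and 602 WT cells), with clusters 16 and 22, which hold more Six3. Over clusters 6 and 13 alone, a choice made after seeing the data, the summed log2 ratio was 0.13 in cKO and 0.15 in WT, and 67 members in cKO and 72 in WT lay above 0. Among the 6 highest in this step in both libraries were Rps9 and Rps26 of the small subunit. Rps26 stood at a ratio of 1.28 (1.26 to 1.31) in cKO and 1.35 (1.32 to 1.38) in WT. Among the 6 lowest in both were Rps15, Rpl31 and Rpl41, with Rps15 at a ratio of 1.01 (0.979 to 1.04) in cKO and 1.07 (1.04 to 1.10) in WT. The cycling cells lay on the other side of the astroglia, with a summed log2 ratio over astroglia of -0.28 in cKO and -0.26 in WT. No member was lower there by 1.5-fold, against 5.32% of all genes tested in cKO and 8.36% in WT.

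From intermediate progenitors to neurons nearly the whole set was lower. The summed log2 ratio, glutamatergic neurons over intermediate progenitors, was -0.80 in cKO and -0.75 in WT, and every member lay below 0. Lower by at least 1.5-fold were 66 members (85.7%) in cKO, where 14% of all genes tested were, and 61 (79.2%) in WT, where 14.1% were. The 61 were all among the 66. Rps27l had the lowest ratios, at 0.46 (0.43 to 0.48) in cKO and 0.44 (0.41 to 0.46) in WT. Rps26, which lies at the ribosome's mRNA exit channel, stood at a ratio of 0.46 (0.45 to 0.47) in cKO and 0.48 (0.47 to 0.49) in WT. Rps7 stood nearest to 1, at 0.77 (0.76 to 0.79) in cKO and 0.83 (0.81 to 0.84) in WT.

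Against astroglia the neurons were lower by less. The summed log2 ratio, glutamatergic neurons over astroglia, was -0.58 (-0.59 to -0.58) in cKO and -0.48 (-0.48 to -0.48) in WT. The members' medians were -0.58 in cKO and -0.48 in WT, and those of all genes tested were -0.06 and -0.09. Lower by 1.5-fold were 38 members (49.4%) in cKO, against 23% of 12413 genes tested. In WT there were 23 (29.9%), against 25.2% of 12503 genes, a share near that background. The 23 were all among the 38. These counts sit at a threshold that lies close to the median member, and they moved with the setting. With the minimum UMIs of a cell doubled they were 23 in cKO and 5 in WT. With at most 5% mitochondrial UMIs they were 23 and 8, and with RP and mitochondrial UMIs out of the denominator 58 and 33. The share of all genes lower by 1.5-fold under these settings is not given here, so these counts have no background beside them. Over astroglia of clusters 6 and 13 alone the summed log2 ratio was -0.67 in cKO and -0.60 in WT, with 51 members lower by 1.5-fold in cKO, against 20.9% of all genes tested, and 40 in WT, against 21.7%. GABAergic neurons over astroglia gave a summed log2 ratio of -0.66 in cKO and -0.54 in WT. There 45 members (58.4%) in cKO and 31 (40.3%) in WT were lower by 1.5-fold, against 22.5% and 24.9% of all genes tested.

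**Figure D2:**
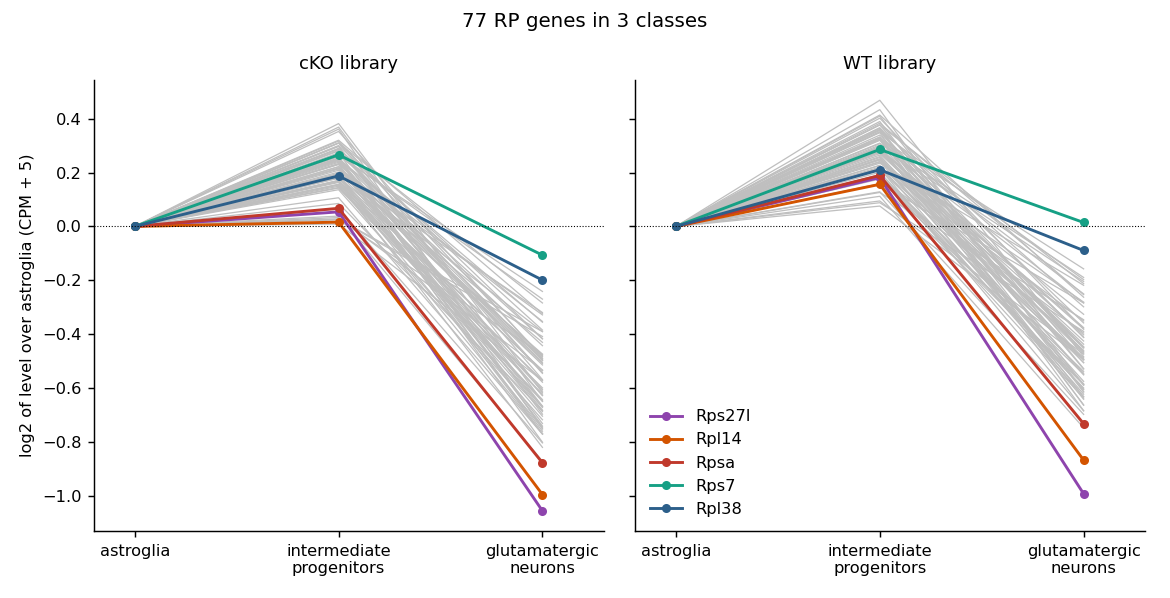
Level of each of the 77 RP genes relative to its own level in astroglia (vertical axis, log2 with 5 CPM added) in 3 classes, astroglia (all 4 clusters), intermediate progenitors and glutamatergic neurons, cKO library left and WT library right; grey lines are single genes and 5 genes are coloured. All lines lie above 0 at the intermediate progenitors, and in neurons they spread from Rps27l at -1.05 in cKO and -0.99 in WT to Rps7 at -0.11 in cKO and 0.01 in WT.

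The members differed in how much lower they were in neurons, and the differences recurred. Across the 77 genes, the log2 ratios of glutamatergic neurons over astroglia in the 2 libraries had a Spearman correlation of 0.97; the genes share cells and depth within a library, so this is a description. The 6 lowest members were the same genes in both, namely Rps27l, Rpl14, Rpsa, Rplp1, Rplp0 and Rps2. Of the 6 least lower, 5 were shared, namely Rps7, Rpl38, Rpl7a, Rpl27 and Rpl34.

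Rps27l, a near copy of Rps27 that is known in human cells as a p53 target, stood at 220.6 CPM in glutamatergic neurons and 463.8 CPM in astroglia of the cKO library. In WT it stood at 225.6 CPM in glutamatergic neurons and 453.6 CPM in astroglia. The ratios were 0.48 (0.46 to 0.49) in cKO and 0.50 (0.48 to 0.52) in WT. Its partner Rps27 was lower by less, at 1047 CPM in cKO glutamatergic neurons against 1473 CPM in cKO astroglia, and at 1066 CPM in WT glutamatergic neurons against 1479 CPM in WT astroglia. In GABAergic neurons Rps27l was again the lowest in both libraries, at 192.0 CPM in cKO and 200.6 CPM in WT.

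Rpl14, a protein of the large subunit, stood at 758.8 CPM in glutamatergic neurons against 1517 CPM in astroglia in cKO, a ratio of 0.50 (0.49 to 0.51). In WT it stood at 805.4 CPM against 1473 CPM, a ratio of 0.55 (0.54 to 0.56). Rpsa, a small-subunit protein also known as the laminin receptor precursor, stood at 1867 CPM against 3433 CPM in cKO and at 1856 CPM against 3086 CPM in WT. The ratios were 0.54 (0.54 to 0.55) in cKO and 0.60 (0.59 to 0.61) in WT.

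The stalk of the large subunit, where elongation factors bind, is made by Rplp0, Rplp1 and Rplp2. Rplp0, its base, stood at 1859 CPM in glutamatergic neurons against 3285 CPM in astroglia in cKO, and at 2093 CPM against 3366 CPM in WT. Rplp1 stood at 1985 CPM against 3635 CPM in cKO and at 2035 CPM against 3420 CPM in WT. Rplp2 was lower by less, at 1335 CPM against 1986 CPM in cKO and 1399 CPM against 1926 CPM in WT. In GABAergic neurons Rplp0 stood at 1453 CPM in cKO and 1718 CPM in WT, ratios over astroglia of 0.44 (0.44 to 0.45) and 0.51 (0.50 to 0.52), so there too the base of the stalk was among the 6 lowest members.

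At the other end, Rps7, a small-subunit protein that can bind the p53 ligase Mdm2, stood at 2904 CPM in glutamatergic neurons against 3127 CPM in astroglia in cKO. In WT it stood at 2968 CPM against 2938 CPM, a ratio of 1.01 (0.997 to 1.02), the only member not below 1 there. Rpl38, known in mouse from the Tail-short mutant and the translation of Hox messages, stood at 1326 CPM against 1523 CPM in cKO and at 1468 CPM against 1562 CPM in WT. Rpl10, which acts in the last steps of large-subunit maturation, was the least lower member in GABAergic neurons, with a ratio over astroglia of 0.88 (0.86 to 0.89) in cKO and 0.97 (0.95 to 0.99) in WT. Rps6, the target of S6 kinase, stood at 744.6 CPM in glutamatergic neurons against 1273 CPM in astroglia in cKO and at 847.6 CPM against 1276 CPM in WT. Rps27a, made as a fusion with ubiquitin, stood at 2630 CPM against 4410 CPM in cKO and at 2691 CPM against 4122 CPM in WT.

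**Figure D3:**
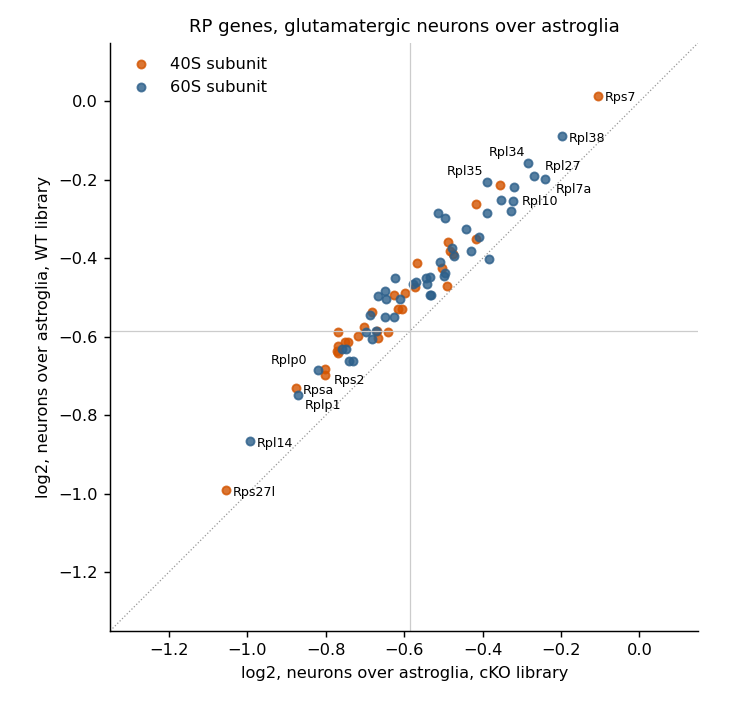
Log2 ratio, glutamatergic neurons over astroglia, of each of the 77 RP genes in the cKO library (horizontal axis) and in the WT library (vertical axis), coloured by subunit; grey lines mark 1.5-fold lower and the dotted line equal ratios. The points run along a band from Rps27l (-1.05 in cKO and -0.99 in WT) to Rps7 (-0.11 in cKO and 0.01 in WT). The ratio was lower in cKO than in WT for 76 of 77 genes, which share cells and depth. Over all genes tested the medians were -0.06 in cKO and -0.09 in WT. Several glutamatergic clusters held cells of nearly 1 library only.

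The subunits moved nearly together. The small subunit's share of RP UMIs was 44.1% in astroglia, 44.2% in intermediate progenitors and 43.0% in glutamatergic neurons of the cKO library. In WT it was 44.0% in astroglia, 44.1% in intermediate progenitors and 43.1% in glutamatergic neurons. The summed log2 ratio of neurons over astroglia was -0.62 for the small and -0.55 for the large subunit in cKO, and -0.51 for the small and -0.46 for the large subunit in WT.

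The promoters of 3 of the lowest members and of 3 of the least lower are shown because they lie near the ends of this range. Rps27l, Rpl14 and Rpsa stand for the low end and Rpl38 and Rps7 for the high end in glutamatergic neurons over astroglia in both libraries, and Rpl10 was the least lower in GABAergic neurons over astroglia. They come from the RefSeq promoter table (build GRCm38.p6), which matched 57 of the 77 members, and run from 60 bases before the annotated start to 20 bases of the transcript. Capitals mark CGGAAG, a core of ETS-family sites, and CTTTCC, on either strand.
Rps27l (chr9:66946026-66946105, plus strand): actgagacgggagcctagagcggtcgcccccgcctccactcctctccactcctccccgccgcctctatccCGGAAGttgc
Rpl14 (chr9:120571457-120571536, plus strand): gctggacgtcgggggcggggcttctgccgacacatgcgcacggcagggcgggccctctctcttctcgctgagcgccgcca
Rpsa (chr9:120127706-120127785, plus strand): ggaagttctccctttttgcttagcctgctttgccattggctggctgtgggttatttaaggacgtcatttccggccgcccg
Rpl10 (chrX:74270756-74270835, plus strand): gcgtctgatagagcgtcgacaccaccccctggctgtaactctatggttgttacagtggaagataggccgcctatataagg
Rpl38 (chr11:114668520-114668599, plus strand): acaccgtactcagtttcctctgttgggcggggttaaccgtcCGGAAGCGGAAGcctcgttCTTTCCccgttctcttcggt
Rps7 (chr12:28635934-28636013, minus strand): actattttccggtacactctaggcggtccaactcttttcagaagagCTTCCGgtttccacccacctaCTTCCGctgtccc

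Over 300 bases, CGGAAG on either strand was found in 40 of the 57 member promoters (70.2%) and in 17.2% of all 27025 promoters in the table. CTTTCC was found in 27 (47.4%) and in 26.3% of all. TATAAA was found in 5 (8.77%) and in 14.2% of all, and AAGATGG, which resembles the YY1 motif, in 8 (14.04%) and in 6.48% of all. CGGAAG and AAGATGG can share the letters AAG where they adjoin, and the counts were made for each motif alone. The median log2 ratio of neurons over astroglia was -0.54 in cKO and -0.46 in WT for members with CGGAAG, and -0.67 in cKO and -0.58 in WT for members without it. For CTTTCC the medians were -0.60 in cKO and -0.49 in WT with it, and -0.58 in cKO and -0.47 in WT without it. For TATAAA they were -0.65 in cKO and -0.50 in WT with it, and -0.59 in cKO and -0.48 in WT without it. For AAGATGG they were -0.56 in cKO and -0.46 in WT with it, and -0.60 in cKO and -0.49 in WT without it. A match is a description of these letters and not a bound site.

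The companion genes of the ribosome, in lists chosen with results of these data known, went different ways from astroglia to glutamatergic neurons. The 8 ribosomal genes that the symbol rule does not take were all lower, with a median log2 ratio of -0.45 in cKO and -0.33 in WT. Among them Rpl22l1, the paralog of Rpl22, stood at 485.8 CPM in neurons against 1278 CPM in astroglia in cKO, and at 471.3 CPM against 1256 CPM in WT. Its log2 ratio of -1.39 in cKO and -1.41 in WT was below that of every member. Rpl22 itself stood at 831.0 CPM against 1392 CPM in cKO and at 807.7 CPM against 1282 CPM in WT. The ubiquitin fusion Fau, the scaffold Rack1 and Rps3a1, which are parts of the small subunit, were within the range of the members.

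Translation factors and other messages known for a 5′ TOP motif were mixed. Of 14 such genes, 12 lay below 0 in each library, and 4 in cKO (28.6%) and 2 in WT (14.3%) were lower by 1.5-fold, against 23% in cKO and 25.2% in WT of all genes tested, so the counts stand near or below that background. Eef1d, a subunit of the exchange factor that recharges elongation factor 1, stood at 99.6 CPM in neurons against 470.7 CPM in astroglia in cKO and at 108.0 CPM against 464.9 CPM in WT. Eef2, the factor of ribosome translocation, went the other way, at 967.4 CPM against 741.7 CPM in cKO and 948.4 CPM against 693.8 CPM in WT. The nucleolar chaperone Npm1, which is also on the biogenesis list, stood at 1226 CPM in neurons against 2079 CPM in astroglia in cKO and at 1148 CPM against 1855 CPM in WT.

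Of 59 ribosome biogenesis genes, 15 in cKO (25.4%) and 9 in WT (15.3%) were lower in neurons by 1.5-fold. These shares are near or below the 23% and 25.2% of all genes tested. Higher were 1 in cKO and 2 in WT, for which no share of all genes is given here. The medians were -0.38 in cKO and -0.21 in WT. Ltv1, needed to mature the small subunit, had a log2 ratio of -1.57 in cKO and -1.55 in WT, and Dkc1, the pseudouridine synthase of ribosomal RNA, -1.44 in cKO and -1.36 in WT. Of 78 mitochondrial ribosomal protein genes, 16 in each library (20.5%) were lower by 1.5-fold, below the same background, with medians of -0.25 in cKO and -0.21 in WT. In intermediate progenitors, where all cytosolic RP genes peaked, these lists were mixed: over astroglia 21 biogenesis genes in cKO and 33 in WT lay above 0, and of the mitochondrial list 39 in cKO and 40 in WT did.

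The genes of growth signalling were few and uneven. Of 15, Mycl stood at 105.8 CPM in neurons against 35.05 CPM in astroglia in cKO and at 108.9 CPM against 28.1 CPM in WT. Myc stood at 46.4 CPM against 2.05 CPM in cKO and at 47.4 CPM against 5.74 CPM in WT. Eif4ebp1, an inhibitor of cap-dependent translation that mTOR switches off, stood at 3.92 CPM against 32.4 CPM in cKO and at 4.59 CPM against 26.1 CPM in WT. Among 8 hosts of small nucleolar RNAs the median was 0.06 in cKO and 0.10 in WT, with Snhg3 and Snhg8 lower and Snhg5 higher by 1.5-fold in both libraries. Early response genes, which mark handling of the tissue as well as activity, also differed between these classes, in both directions. Fos, Jun and Egr1 were lower in neurons in both libraries. Dusp1 was higher there, with a log2 ratio of 1.07 in cKO and 0.39 in WT, and so was Junb, at 0.61 in cKO and 0.02 in WT. Fos stood at 289.9 CPM in neurons against 735.6 CPM in astroglia in cKO and at 328.7 CPM against 1155 CPM in WT. Mitochondrially encoded UMIs were 3.60% in neurons against 3.00% in astroglia in cKO and 3.23% against 2.68% in WT. Malat1, a nuclear RNA, stood at 21920 CPM in neurons against 12440 CPM in astroglia in cKO and at 19890 CPM against 14870 CPM in WT, opposite to the RP share. The part of early response genes, mitochondrially encoded UMIs and Malat1 in the RP difference was not tested.

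**Figure D4:**
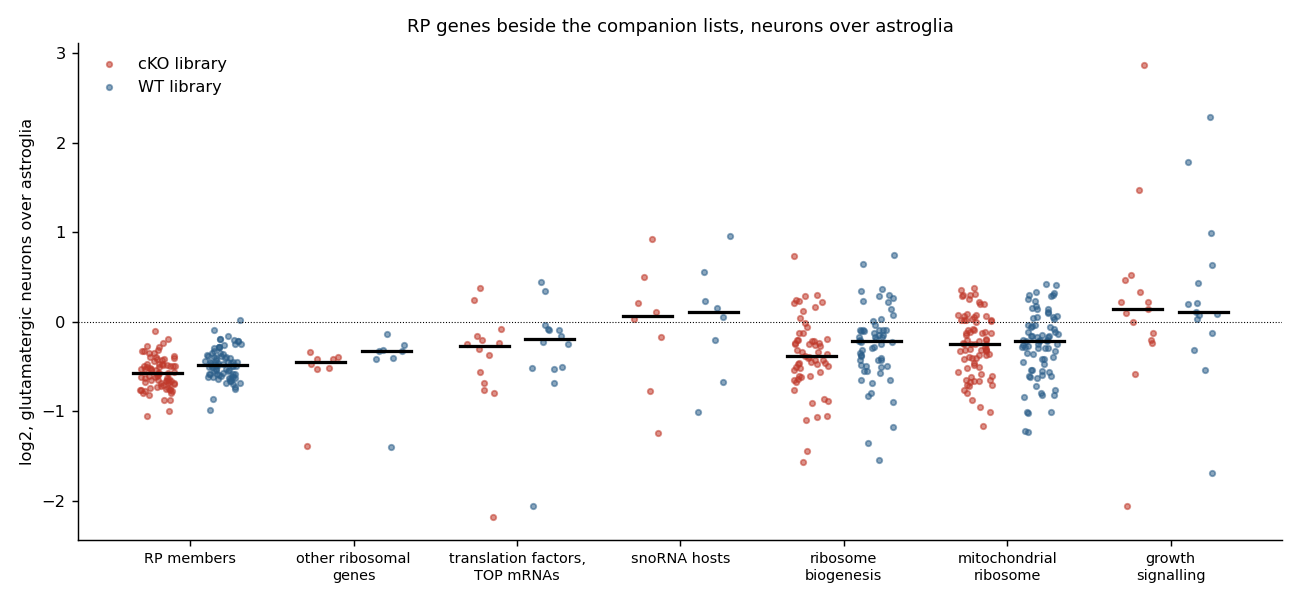
Log2 ratio, glutamatergic neurons over astroglia, of the 77 RP genes and of the tested genes of 6 companion lists (one dot per gene), cKO library left and WT library right in each pair; black bars are medians. RP genes have medians of -0.58 in cKO and -0.48 in WT and run from -1.055 to -0.11 in cKO and from -0.99 to 0.01 in WT. Most biogenesis genes also lie below 0 (49 of 59 in cKO and 46 in WT). So do most mitochondrial ribosome genes (56 of 78 in cKO and 58 in WT). The snoRNA hosts have medians of 0.06 and 0.10.

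Between genotypes the set as a whole differed little, and in different directions by class. The summed RP log2 ratio, cKO over WT, was 0.076 (0.073 to 0.078) in astroglia, 0.058 (0.055 to 0.060) in cycling progenitors and 0.017 (0.013 to 0.022) in intermediate progenitors. It was -0.030 (-0.032 to -0.027) in glutamatergic neurons and -0.045 (-0.048 to -0.042) in GABAergic neurons. Members above 0 numbered 68, 63, 45, 19 and 9 of 77 in those 5 classes. The median log2 ratio over all genes tested was -0.027, -0.021, -0.010, -0.0057 and 0.0062 in the same order. The members share cells and depth, so these counts are not independent of the sums. In each class 1 member (1.3%) was higher in cKO by 1.5-fold and none was lower. Of all genes tested, 0.468% were higher and 2.28% lower in astroglia, 0.238% and 0.722% in cycling progenitors, 0.904% and 1.27% in intermediate progenitors, 1.55% and 1.68% in glutamatergic neurons, and 0.57% and 0.151% in GABAergic neurons.

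These sums depended on which cells stood for a class. Glutamatergic clusters 7 and 11 held 778 and 674 cKO cells but 14 and 5 WT cells, and clusters 14 and 18 held 2 and 8 cKO cells but 630 and 493 WT cells. In the 3 glutamatergic clusters with at least 50 cells of each library the log2 ratio was -0.056 (cluster 15), -0.14 (cluster 17, with 64 WT cells) and -0.26 (cluster 20). Among 6 GABAergic clusters 3 lay above 0 (clusters 0, 8 and 25, at 0.021, 0.054 and 0.0053) and 3 below it (clusters 5, 21 and 24, at -0.032, -0.021 and -0.19). With the shared clusters weighted equally it was -0.15 in glutamatergic neurons and -0.019 in astroglia, and among cells of 5000 to 10000 UMIs it was 0.015 in glutamatergic neurons. Astroglia of clusters 6 and 13, with Emx1 at 56.3 to 98.7 CPM and Six3 at 5.09 to 6.50 CPM, lay above 0 (0.056 and 0.030), and together they gave 0.041. Astroglia of clusters 16 and 22, with Emx1 at 2.17 to 9.86 CPM and Six3 at 267.3 to 533.3 CPM, lay below it (-0.11 and -0.081). Mitochondrially encoded UMIs were higher in cKO in all 5 classes, for example 3.60% in cKO and 3.23% in WT glutamatergic neurons, and cKO cells had fewer UMIs; their part in these small differences was not tested.

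Rpl29 stood apart from every other member. It encodes a basic protein of the large subunit that is known also as a heparin-binding protein, and mice without it are viable and small. In cKO it stood at 2154 CPM in astroglia, 1776 CPM in cycling progenitors, 2500 CPM in intermediate progenitors, 1507 CPM in glutamatergic neurons and 1414 CPM in GABAergic neurons. In WT it stood at 1134 CPM in astroglia, 970.7 CPM in cycling progenitors, 1399 CPM in intermediate progenitors, 930.5 CPM in glutamatergic neurons and 855.0 CPM in GABAergic neurons. The ratio, cKO over WT, was 1.90 (1.86 to 1.94) in astroglia and 1.62 (1.59 to 1.65) in glutamatergic neurons, and the other 3 classes lay between. Its order across the classes was the same in both libraries.

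The Rpl29 difference was also seen in classes whose known origin lies outside the Emx1 lineage, although lineage was not measured here. Microglia, which arise outside the brain, held 2325 CPM in cKO (47 cells) and 1312 CPM in WT (44 cells). GABAergic neurons, given above, differed likewise. Within them Tcf4 went both ways by cluster. It stood at 568.2 CPM in cKO and 726.4 CPM in WT in cluster 5, but at 731.7 CPM in cKO and 454.3 CPM in WT in cluster 8. The lineage of the next 2 classes was not resolved here. Oligodendrocyte progenitors held 2112 CPM in cKO and 1179 CPM in WT. The Cajal-Retzius class held 1259 CPM in cKO and 713.3 CPM in WT. Free RNA held 1517 CPM in cKO and 857.4 CPM in WT, a ratio of 1.77. In all 24 clusters with at least 50 cells of each library the ratio lay between 1.36 and 1.89. With shared clusters weighted equally the glutamatergic log2 ratio was 0.56, just under 1.5-fold. Genes with midpoints within 250 kb of that of Rpl29 were read in glutamatergic neurons, a check chosen after the values were seen. Of 12 such other genes tested, 1 passed 1.5-fold, namely Grm2, which was lower. Of all genes tested there 1.55% were higher and 1.68% lower.

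Rpl21, also of the large subunit, was the reverse case at a smaller size. In cKO it stood at 2129 CPM in astroglia, 2394 CPM in intermediate progenitors, 1469 CPM in glutamatergic neurons and 1474 CPM in GABAergic neurons. In WT it stood at 2565 CPM in astroglia, 2967 CPM in intermediate progenitors, 1819 CPM in glutamatergic neurons and 1847 CPM in GABAergic neurons. The ratio lay between 0.80 and 0.83 in the 5 classes, between 0.69 and 0.86 in the 24 clusters, and at 0.88 in free RNA. Microglia held 2228 CPM of Rpl21 in cKO and 2849 CPM in WT. Of 5 other genes with midpoints within 250 kb of that of Rpl21 and tested in glutamatergic neurons, 1 passed 1.5-fold with the pseudocount of 5 CPM. This was Lnx2, lower like Rpl21, at a ratio of 0.52 (0.42 to 0.64). Rasl11a had a ratio of 0.51 (0.30 to 0.85) without the pseudocount and did not pass with it. Of all genes tested there 1.55% were higher and 1.68% lower.

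The other 75 members lay close together, with ratios from 0.98 to 1.13 in astroglia, from 0.88 to 1.04 in glutamatergic neurons and from 0.85 to 1.02 in GABAergic neurons. Besides Rpl21, only Rpl38 and Rplp0 had ratios whose interval lay below 1 in all 5 classes. Rplp0 stood at 0.98 (0.96 to 0.99) in astroglia, 0.89 (0.88 to 0.90) in glutamatergic neurons and 0.85 (0.83 to 0.86) in GABAergic neurons. Rpl38 stood at 0.90 (0.89 to 0.92) in glutamatergic neurons, and Rps6 at 0.88 (0.86 to 0.90). Without Rpl29 and Rpl21 the summed log2 ratios were 0.073 in astroglia and -0.033 in glutamatergic neurons.

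**Figure D5:**
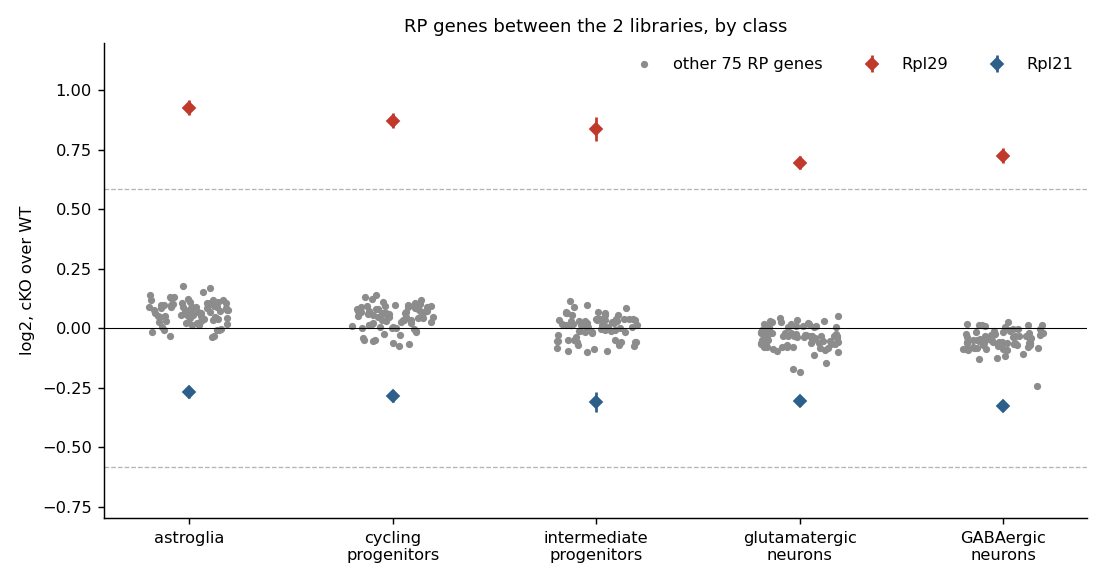
Log2 ratio, cKO over WT, of the 77 RP genes in 5 classes (horizontal axis); grey points are 75 genes, red and blue diamonds are Rpl29 and Rpl21 with exact 95% counting intervals, and dashed lines mark 1.5-fold. Rpl29 lies above the upper line in all 5 classes (ratios of 1.62 to 1.90) and Rpl21 below the grey points (0.80 to 0.83).

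RP genes have many processed copies in the genome, and 55 of the 77 members have at least 1 pseudogene named after them in GENCODE vM21, up to 24 for Rpl31. Rpl29 has 3 and Rpl21 has 15. How reads that fit several copies were counted is not given in the sources used here, so levels of members with near-identical copies are uncertain, Rpl29 and Rpl21 included.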

How the data were processed

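Members and lists were chosen with earlier results of these data known. Each deposited matrix gives UMI counts without normalization for all barcodes, empty droplets included. Per the file headers the software was Cell Ranger 7.1.0; version 2.1.1 and build mm10 come from the submitters' processing notes. The intron setting and annotation are not given in the sources used here. Tissue slices were dissociated enzymatically and tagged with a 10x 3′ protocol, per the labels' protocols. All CPM, shares and ratios were computed here from the counts.

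The cKO library held 121321247 UMIs and the WT library 116998498. A barcode was a cell at or above percentile 99 of the 5000 largest totals divided by 10 (3341 UMIs in cKO, 3348 in WT), with 500 genes and at most 10% mitochondrial UMIs; scrublet (scanpy 1.11.5, expected rate 6%) removed 566 cKO and 339 WT doublets. Clustering used 2000 variable genes (no RP genes), 30 components, 15 neighbours and Leiden (leidenalg 0.10.2) at resolution 1. A class needed 3 markers in 20% of cells at 1.5-fold, a score 1.5 times the next, 1 of its markers among the 30 leading genes and no other class with more markers among the leading genes; glutamatergic-lineage names were barred where Gsx or Dlx genes led. The rule was partly set after the clusters were seen; other clusters stayed unnamed. UMIs were summed per class and library. Intervals are exact (Poisson, Clopper-Pearson, conditional binomial; 95%). Log2 ratios of single genes have a pseudocount of 5 CPM, and genes with 50 UMIs over both groups were tested against 1.5-fold. Named members are the 6 highest and 6 lowest per comparison, paralog pairs, the stalk, Rpsa, Rps6 and Rps27a; some are not reported here. Calls and intervals were tested on data simulated with counting error alone, which cannot show how they fare with differences between libraries. Positions are from GENCODE vM21 and RefSeq.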

Additional observations from a re-analysis of the deposited data

Results flagged for a closer look

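The summed RP log2 ratio, cKO over WT, had opposite signs in different classes: 0.076 in astroglia, 0.058 in cycling progenitors and 0.017 in intermediate progenitors, but -0.030 in glutamatergic neurons and -0.045 in GABAergic neurons. The difference between classes was not tested, since each class has 1 library per genotype. Within astroglia the signs also differed, at 0.056 in cluster 6 and 0.030 in cluster 13, both with more Emx1 than Six3 UMIs, against -0.11 in cluster 16 and -0.081 in cluster 22, both with more Six3 than Emx1 UMIs. Cluster 22 held 91 cKO and 281 WT cells. Among 6 GABAergic clusters 3 lay above 0 and 3 below it, between -0.19 and 0.054. These differences were not tested either.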

How the results depend on the processing

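No paired analysis was possible because the labels give 1 library per genotype and no replicate numbers. Values are given as: log2 ratio of the RP sum cKO over WT in astroglia (A, 0.076 as reported) and glutamatergic neurons (G, -0.030), and neurons over astroglia in cKO (-0.58) and WT (-0.48), with the members past 1.5-fold (38 in cKO and 23 in WT). Counting intervals are so narrow that most settings moved the sums beyond them. Member counts under the settings below stand without the share of all genes past 1.5-fold, except for astroglia with more Emx1 than Six3 UMIs.
With the minimum UMIs doubled A was 0.12, and neurons over astroglia -0.51 in cKO (23 members) and -0.36 in WT (5). With at most 5% mitochondrial UMIs A was 0.051, and the others -0.50 in cKO (23 members) and -0.42 in WT (8). With doublets kept G was -0.027, and the others -0.57 in cKO and -0.46 in WT. At Leiden resolution 0.5 A was 0.080, G -0.033, and the others -0.55 in cKO and -0.43 in WT (12 members); at resolution 2 A was 0.068, G -0.015, and the others -0.53 in cKO and -0.45 in WT (15). With unnamed cells added to their nearest class A was 0.054, and the others -0.54 in cKO and -0.46 in WT (15). With RP UMIs removed before clustering G was -0.016, and the others -0.54 in cKO and -0.45 in WT (15). With cells thinned to 3000 UMIs A was 0.071, G -0.012, and the others -0.59 in cKO and -0.51 in WT. With RP and mitochondrial UMIs out of the denominator A was 0.10, and the others -0.69 in cKO (58 members) and -0.56 in WT. With free RNA subtracted A was 0.073, and the others -0.59 in cKO and -0.49 in WT. With shared clusters weighted equally A was -0.019, G -0.15 (0 members past 1.5-fold), and the others -0.53 in cKO and -0.40 in WT (9). Chosen after seeing the data, cells of 5000 to 10000 UMIs gave A 0.064, G 0.015, and the others -0.61 in cKO and -0.56 in WT; astroglia with more Emx1 than Six3 UMIs alone gave A 0.041, and the others -0.67 in cKO and -0.60 in WT (40 members); without Rpl29 and Rpl21 A was 0.073 and G -0.033, with 0 members past 1.5-fold in each by construction. The cause of the other shifts was not tested.
The glutamatergic class stayed below the astroglia class under every setting run, while the sign of A and of G each turned under 1 setting. Of 792 values of named members under alternatives, 765 kept their sign and none past 1.5-fold turned. Those of Rpl29 and Rpl21 kept it in 88 of 88, Rpl29 between 0.56 and 0.97 and Rpl21 between -0.44 and -0.24. Many named members were chosen as the highest or lowest in these same data, and every setting reuses the same 2 libraries. Kept signs thus cannot show that the values would recur in other libraries. The total count of a member limits little here, since every member held at least 61564 UMIs over both libraries. Cell depth did matter: the sums moved with the minimum UMIs doubled, and G turned sign among cells of 5000 to 10000 UMIs. What limits the text is 1 library per genotype, the choice of cells by depth, rebuilt class names and unknown counting of near-identical copies.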

Other observations

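The highest RP share of any cluster stood outside the neural classes. Unnamed cluster 33, led by Ptgds, Mlana, Pmel, Pax3, Dct and Mitf, genes of pigment cells, held 27.4% RP UMIs (27.3 to 27.5) in 43 WT cells; only 4 cKO cells fell in it, at 23.7%. Microglia held 20.5% in cKO (47 cells) and 19.9% in WT (44 cells), near the level of astroglia. Ependymal or choroid plexus cells held 11.1% in cKO (24 cells) and 11.2% in WT (35 cells), although their cells were deep, with medians of 23870 UMIs in cKO and 19490 UMIs in WT. The class named for Cajal-Retzius cells, early-born neurons of the cortical surface, held 11.6% in cKO and 11.3% in WT, below the glutamatergic class. It pools 2 unlike clusters. Cluster 28 (63 cKO and 74 WT cells) had Reln and Trp73 among its leading genes and held 11.3% in each library. Cluster 26 (100 cKO and 111 WT cells) had only Lhx1 of the class markers among its 30 leading genes. Its Six3 stood at 501.2 CPM in cKO and 435.4 CPM in WT, so its name is uncertain. Oligodendrocyte progenitors held 16.4% in cKO and 17.7% in WT, with 38 cells in each library.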
